A study of Rattus norvegicus with 63 samples.

Results

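miR-139-5p and miR-139-3p are the mature miRNAs cut from the left and the right arm of a single rat hairpin, Mir139. They were followed here in the livers of 63 male rats, 45 given 1 of 15 compounds and 18 given only a vehicle. The pair was picked by name from the 350 rat miRNAs on the array. It was picked with fold changes of miR-139-3p in these same rats already known, so what a compound did to either arm is given as a description, with calls but no p-values. Both arms were among the 162 miRNAs that were detected on at least 1 array and entered the fit. The authors' table of normalized log2 values lists 135 miRNAs and holds miR-139-3p only.

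The rats were Wistar Hanover males, 8 to 10 weeks old, dosed daily by gavage, and total liver RNA from each rat was hybridised to 1 array. The rats profiled were chosen from larger dose groups on liver histopathology and were not a random draw from them. Each group here is 3 rats. Acetamide (AA, 3000 mg/kg/d), Dehydroepiandrosterone (DHEA, 600), Methylcarbamate (Mcarb, 400), Methapyrilene HCl (MPy, 60), Thioacetamid (TAA, 19.2) and Wy-14643 (Wy, 60) are set by their labels against methylcellulose set 1. Of these, AA, DHEA and Mcarb were given for 14 days, MPy and TAA for 7 and Wy for 3. Cefuroxime (CFX, 250) and Nifedipine (Nif, 3), both for 14 days, belong to methylcellulose set 2. Diethylstilbestrol (DES, 10) and Piperonylbutoxide (PBO, 1200), both for 3 days, and Ethionine (ETH, 200) for 14 days belong to methylcellulose set 5, and Phenobarbital sodium (PB, 14 days, no dose in the labels) to methylcellulose set 6. C.I Direct Black (CIDB, 146) and Dimethylnitrosamine (DMN, 4), given for 7 days, belong to corn oil set 3, and Cyproterone acetate (CPA, 100), given for 14 days, to corn oil set 4. The methylcellulose (MC) rats and corn oil (CO) set 4 were dosed for 14 days and CO set 3 for 7, so by the labels the DES, PBO, MPy, TAA and Wy rats had shorter dosing than their controls, although the methods describe the controls as matched in time. The study classes PB, PBO, DHEA, AA, MPy, Mcarb, DES and ETH as nongenotoxic liver carcinogens, CIDB and DMN as genotoxic carcinogens, CFX and Nif as non-hepatocarcinogens, and lists CPA, TAA and Wy as compounds of undefined class in its design.

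A miRNA hairpin is cut out of a longer transcript by Drosha and trimmed by Dicer to a short duplex, of which usually one strand is loaded into an Argonaute protein and the other is degraded. The loaded strand finds messenger RNAs mainly through its seed, the short stretch near its 5′ end, so the strands of one hairpin address different targets. Both strands of a hairpin come from one transcript, and their amounts can still differ in the cell. miR-139 is known as a miRNA that is low in hepatocellular carcinoma, and its hairpin lies within Pde2a, the gene of a phosphodiesterase that breaks down cyclic nucleotides.

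The sequences of both arms are shown because the seeds, bases 2 to 8 and printed in capitals, are what sets the arms apart. They were taken from RefSeq on the rat build GRCr8, where both arms matched by name, and both are 22 bases long.
rno-miR-139-5p: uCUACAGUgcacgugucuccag
rno-miR-139-3p: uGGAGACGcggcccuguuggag
The 5p arm lies at chr1:165290865-165290886 and the 3p arm at chr1:165290901-165290922, both on the plus strand. No other mature rat miRNA in the RefSeq table shares either seed (0 for each arm). The 3p arm holds 15 G or C bases and the 5p arm 12. The precursor, at chr1:165290859-165290926 on the plus strand, has 68 bases, and the arms are in capitals.
Mir139: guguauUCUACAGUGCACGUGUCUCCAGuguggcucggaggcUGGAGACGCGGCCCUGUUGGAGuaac
Folded with RNAfold, it formed 25 base pairs, with 19 of the 22 bases of each arm paired to the other arm. The hairpin lies inside the span of Pde2a, a protein-coding gene at 165235623 to 165327466 of the same chromosome. Whether it sits in an intron or an exon was not analysed here.

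Before any comparison, 2 facts about the arrays limit what the values of miR-139 mean. The first concerns which rat an array belongs to. Over the 71 miRNAs detected on every array, 48 of the 63 columns of the authors' table correlated best with the scanner file of the same rat. The other 15 columns correlated best with the file of another rat, at r from 0.84 to 0.96 against r from -0.05 to 0.67 with their own. In the table the DES and DHEA columns were exchanged, the columns of MC set 1 followed the arrays filed as MC set 5, those of set 5 the arrays filed as set 2, and those of set 2 the arrays filed as set 1. The correlations alone do not tell which of the 2 sources carries the right labels, but the positions of the arrays bear on it. Here the arrays of slides 1 to 8 are taken in order of slide, row and column. As labelled, MC set 1 came after Nif, MC set 2 after ETH and MC set 5 after Mcarb. With the table's assignment these places were held by MC set 2, MC set 5 and MC set 1, so each followed its own compounds. DES and DHEA also lay next to compounds of their own control set only in that assignment. No other source was checked, so miR-139-3p is given both with the arrays as labelled and assigned as in the table. With a change of assignment, 11 of the 15 compounds (all but CIDB, CPA, DMN and PB) get other control arrays.
The second fact is that the 63 arrays lay on 9 slides, scanned on 3 days, and compounds and slides overlapped little. With the arrays as labelled, 5 of the 15 compounds (CFX, CIDB, CPA, Mcarb and PBO) shared a slide with their own controls, and with the table's assignment 8 did (AA, CFX, CIDB, CPA, ETH, MPy, Mcarb and Nif).

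miR-139-5p was not well above the background of the array in nearly every liver. The scanner software marked it as detected on 2 of 63 arrays, CIDB rat 2 and MC set 1 rat 4. Most spots of a probe were well above background on 1 array only, that of CIDB rat 2, where all 10 spots of the brighter probe were. On that array the net signal of the brighter probe, which is the processed signal that the scanner software gives after its own background subtraction, was 21.6 scanner units, against a median of 7.37 and a lowest value of -2.10 over all arrays. After normalization, miR-139-5p spanned 7.40 to 7.48 on the log2 scale, with a median of 7.44. The pooled SD between rats of a group was 0.0155. Its 2 probes, each printed 10 times, followed each other loosely over the arrays (r = 0.27).

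miR-139-3p was seen in more livers and varied over a far wider range. It was detected on 38 of 63 arrays and well above background on 32. Its log2 value ran from 7.43 to 8.14 with a median of 7.50, and the pooled SD between rats of a group was 0.151. The net signal of its brighter probe, printed 10 times, ran from 5.62 to 248 units with a median of 22.6, and its dimmer probe was well above background in most spots on 0 arrays but followed the brighter one (r = 0.88 over 63 arrays). As each arm has probes of its own, the level of one arm is not set against that of the other here.

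**Figure D1:**
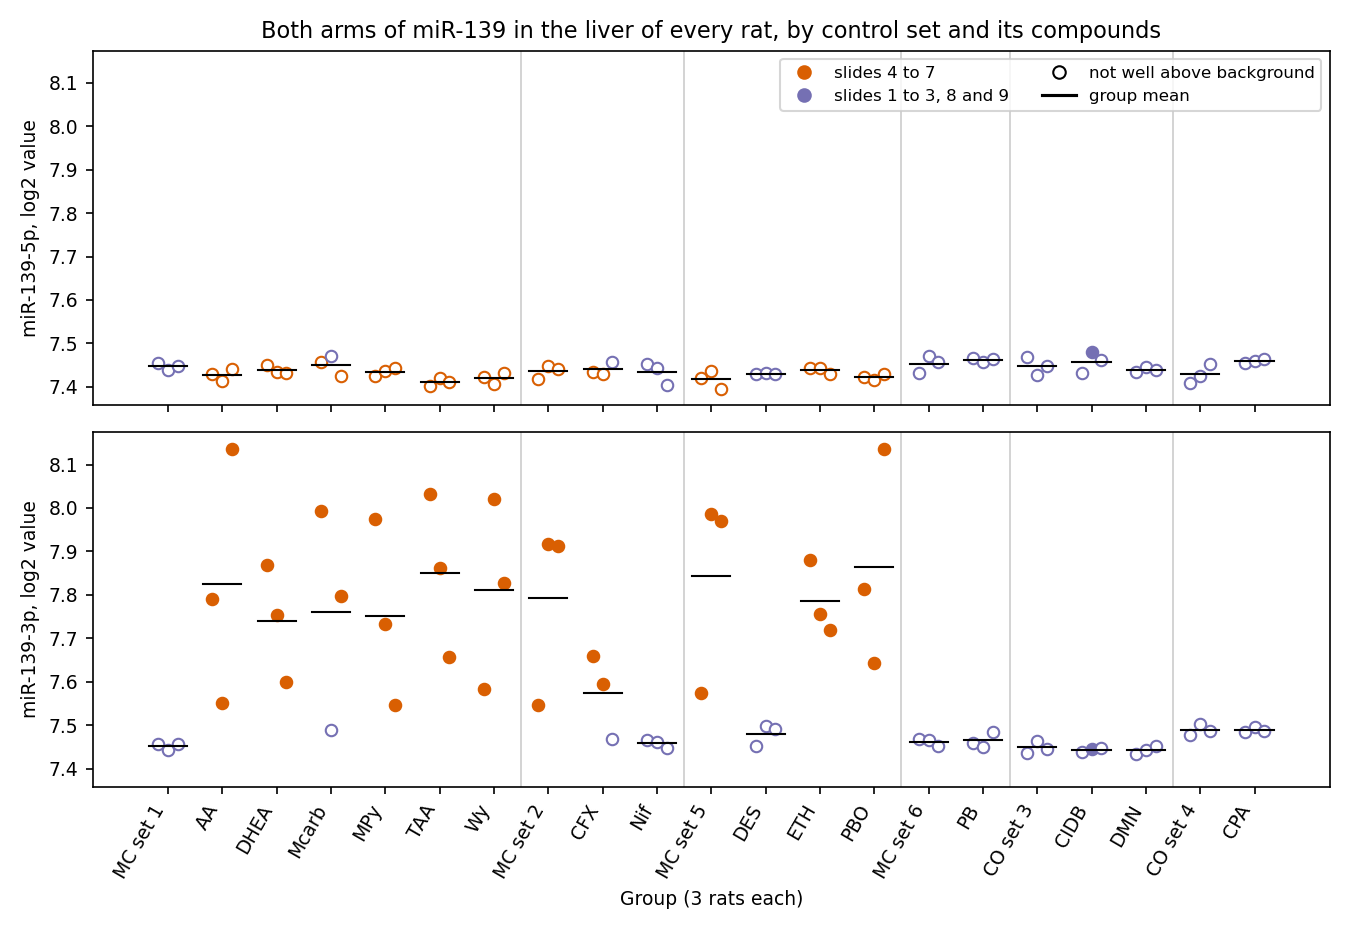
Normalized log2 value of miR-139-5p (upper panel) and miR-139-3p (lower panel) in the liver of each of 63 rats, 3 per group, ordered by control set followed by its compounds. Colours separate slides 4 to 7 from the other slides, open circles are arrays not well above background and lines are group means; miR-139-5p stays between 7.40 and 7.48 throughout, whereas the miR-139-3p values of 7.55 and above are all on slides 4 to 7.

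In the order of group means with the arrays as labelled, miR-139-3p was highest in PBO (7.86), TAA (7.85), MC set 5 (7.84), AA (7.83), Wy (7.81), MC set 2 (7.79), ETH (7.79), Mcarb (7.76), MPy (7.75) and DHEA (7.74). CFX followed at 7.57. The other 10 groups, from CO set 4 and CPA (both 7.49) down to CIDB and DMN (both 7.44), lay within 0.05 of each other. Vehicle rats were in both parts of this order: MC sets 5 and 2 stood among the highest groups and MC sets 1 and 6 and both corn oil sets among the lowest. With the table's assignment MC set 1 (7.84) and DES (7.74) stood among the first 10 groups and MC set 2 (7.45) and DHEA (7.48) among the last 10. Neighbouring groups among the first 10 differed by no more than 0.03, well inside the SD between rats.

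The level of miR-139-3p was divided by slide. On slides 4 to 7 all 31 arrays had it well above background, with net signals from 45.4 to 248 units (median 133) and log2 values from 7.55 to 8.14. Among the other 32 arrays only that of CIDB rat 2, with 7 of 10 spots, passed this mark. Net signals there ran from 5.62 to 22.6 units (median 13.1) and log2 values from 7.43 to 7.50, so the slides did not overlap. The division was drawn after seeing these values and is given without a test. With it, miR-139-3p was also the only 1 of the 162 miRNAs without overlap. As the division was drawn on miR-139-3p itself, this was partly given beforehand. The ranges crossed by little in miR-878 (lowest 7.454 on slides 4 to 7, highest 7.475 on the others) and miR-743a (7.431 and 7.449). The mean difference of miR-139-3p between the slides, 0.34, was the largest of all. miR-142-3p followed at 0.28 and miR-193 at 0.20, and the median over all 162 was -0.0015. miR-139-5p showed no such division, and neither of the arrays on which it was detected lay on slides 4 to 7.

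**Figure D2:**
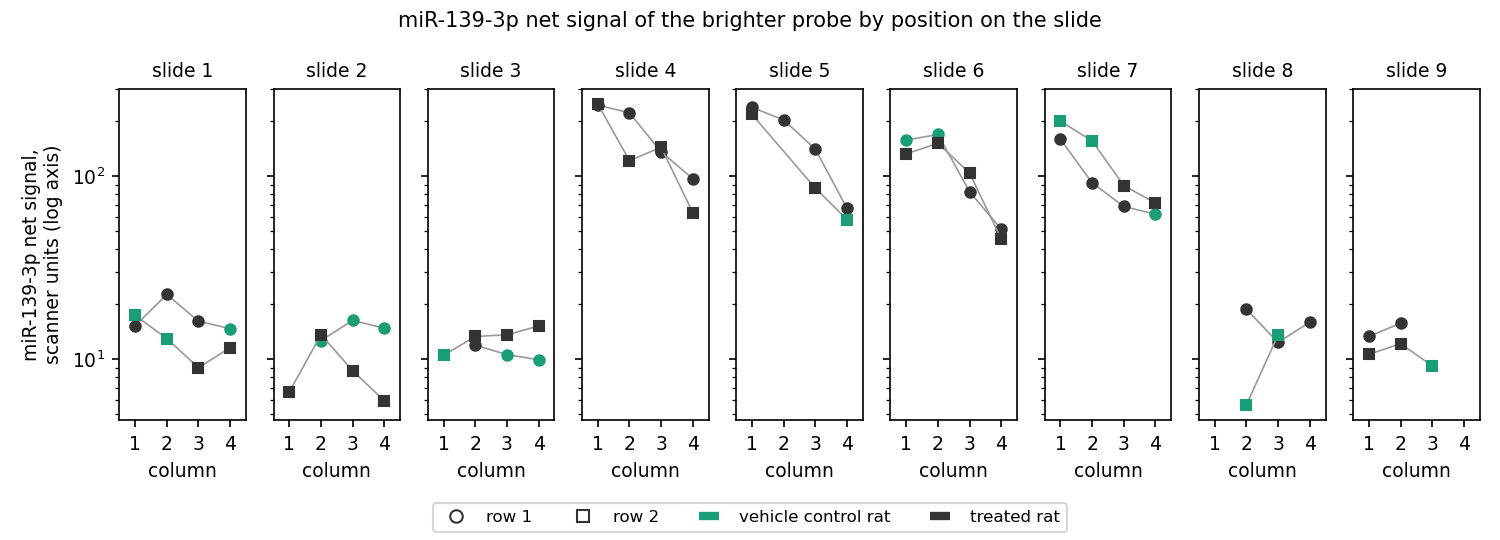
Net signal of the brighter miR-139-3p probe in scanner units (log axis) against the column of the array on its slide, with 1 panel per slide, circles and squares for the 2 rows of arrays, green for vehicle rats and black for treated rats. All 31 arrays of slides 4 to 7 lie at 45.4 or above and all 32 others at 22.6 or below, for vehicle and treated rats alike.

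Within slides 4 to 7 the signal also followed the position of the array on the slide. Median net signals from the first to the fourth column were 209, 156, 96.6 and 62.7 units. The arrays of the first column ran from 133 to 248 and those of the fourth from 45.4 to 97.1, without overlap. Each of these slides has 2 rows of arrays, and in 5 of the 8 rows the signal fell at every step. Over all 8 rows the signal of the first array was 2.53 to 3.92 times that of the last. For miR-139-5p on the same arrays the column medians were 9.13, 7.56, 7.64 and 7.41 units, on arrays none of which was well above background.
Across all 63 arrays, slide alone accounted for an adjusted R2 of 0.62 of the variation of miR-139-3p, and slide and column together for 0.81. Treatment group alone gave 0.49, and slide, column and group together 0.79. In this measure miR-139-3p ranked 8th of 162 miRNAs for slide (median over all 0.29) and 93rd for group (median over all 0.53). In the gain from adding column to slide it ranked 9th (0.19). The highest gain was that of miR-760-3p (0.33), and the median over all was 0.0021. For miR-139-5p the adjusted R2 was 0.35 for slide and 0.32 for group.

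Rats of one group whose arrays lay on different slides were split in the same way. The Mcarb rats 1 and 3, on slide 5, had net signals of 218 and 86.1 units and log2 values of 7.99 and 7.80, whereas Mcarb rat 2, on slide 9, had 10.6 units and 7.49. CFX rats 1 and 2, on slide 7, had 89.0 and 71.4 units, and CFX rat 3, on slide 9, had 12.2. On slides 4 to 7, 6 pairs of a vehicle and a treated rat shared a slide and a column but not a row, and their net signals differed by 1.12-fold to 1.69-fold, with the vehicle rat higher in 4. The closest pair was DHEA rat 1 (152 units) with MC set 5 rat 9 (169), and the farthest was ETH rat 2 (92.1) with MC set 2 rat 12 (156). Slide 4, which carried TAA, Wy and AA rats, held no vehicle rat.

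In the comparison of each compound with its controls, the first question was whether either arm changed with treatment. With the arrays as labelled, miR-139-3p was higher in TAA, AA and Wy and lower in DES by limma (adjusted p under 0.05 over all 162 miRNAs, in the following "called"). These were 3 calls higher and 1 lower in 15 compounds. The share of all 162 miRNAs called higher was 9.88% in TAA, 8.02% in AA and 11.7% in Wy, and the share called lower was 16% in DES. Over all compounds and miRNAs, 7.57% of the 2430 pairs were called higher and 6.71% lower. The calls belong to the contrast on which the pair was chosen, and nothing is read from their number. None of these calls held with the table's assignment.

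The 3 rats given TAA, which damages hepatocytes around the central vein, had miR-139-3p log2 values of 8.03, 7.86 and 7.66. The AA rats had 7.79, 7.55 and 8.14. The Wy rats, given an agonist of the nuclear receptor PPAR alpha, had 7.58, 8.02 and 7.83. Their common control, MC set 1, had 7.46, 7.44 and 7.46, below each of these 9 rats and not well above background in any rat. The log2 fold changes were 0.40 in TAA, 0.37 in AA and 0.36 in Wy, each with an SE of 0.12. Without AA rat 3 the value in AA was 0.22. With normexp background correction the values in TAA, AA and Wy were 0.72, 0.67 and 0.65, and with scaling to the 75th percentile of detected probes 3.42, 2.89 and 3.25. As the controls were only bounded by background, the TAA rats were at least 1.27-fold higher, the AA rats at least 1.25-fold and the Wy rats at least 1.24-fold. Each bound is the mean of the group above background over the lowest level that counted as well above background on each array of the other group, or its own level where that was higher.

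DHEA, MPy and Mcarb share these controls. The values were 7.87, 7.75 and 7.60 in the DHEA rats, 7.97, 7.73 and 7.55 in the MPy rats and 7.99, 7.49 and 7.80 in the Mcarb rats. None of the 9 rats overlapped with MC set 1, and the shares of all miRNAs called higher in these compounds were 9.88%, 8.02% and 1.23%. The log2 fold changes were 0.29, 0.30 and 0.31 (SE 0.12), with bounds of at least 1.18-fold, 1.19-fold and 1.19-fold, the last with 2 of 3 Mcarb arrays well above background, and none was called. Without rat 1 of the group MPy was at 0.19 and Mcarb at 0.19. With normexp DHEA, MPy and Mcarb were at 0.54, 0.55 and 0.56 and with percentile scaling 2.79, 2.89 and 2.70. All 6 compounds measured against MC set 1 were thus above it, and they share its 3 rats.

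DES, a synthetic oestrogen, was on the other side. Its rats had 7.45, 7.50 and 7.49, not well above background in any, against 7.57, 7.99 and 7.97 in MC set 5. The log2 fold change was -0.36 (SE 0.12), at least 1.17-fold lower. It was -0.29 without MC set 5 rat 8 and -0.30 without MC set 5 rat 9, and was then not called. Nif, a calcium channel blocker, gave 7.47, 7.46 and 7.45 against 7.55, 7.92 and 7.91 in MC set 2, a log2 fold change of -0.33 and at least 1.25-fold lower, and was not called. With normexp DES was at -0.63 and Nif at -0.61, and with percentile scaling at -2.54 and -2.64. Neither group overlapped with its controls, and in Nif 0% of all miRNAs were called lower.

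The remaining 7 compounds overlapped with their controls in miR-139-3p. CFX, with 7.66, 7.59 and 7.47, was 1.16-fold lower than MC set 2 (log2 fold change -0.22, with normexp -0.38, with percentile scaling -1.86 and without MC set 2 rat 10 -0.34), with 2 of its 3 arrays well above background. ETH (7.88, 7.76 and 7.72) and PBO (7.81, 7.64 and 8.14) differed from MC set 5 by -0.06 and 0.02 on the log2 scale. PB, CIDB, DMN and CPA lay between 7.43 and 7.50 in every rat, as did their controls, and their log2 fold changes were between -0.01 and 0.00. No fold is given for these 4, whose levels were bounded by background on both sides, apart from CIDB rat 2.

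The order of these fold changes followed the slides of the compound and of its controls. In the 5 compounds with all rats on slides 4 to 7 and all controls on other slides (AA, DHEA, MPy, TAA and Wy) the log2 fold change was 0.29 to 0.40. In the 2 with the opposite layout (DES and Nif) it was -0.36 and -0.33. ETH and PBO, with rats and controls on slides 4 to 7, gave -0.06 and 0.02, and CIDB, CPA, DMN and PB, with neither there, gave -0.01 to 0.00. Mcarb and CFX had rats on both kinds of slide. For the compounds that share no slide with their controls, slide and treatment cannot be told apart.

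With each array given the label of the table column that follows it, the control or treated arrays of 11 compounds changed. The changes in TAA, AA and Wy became 0.01, -0.02 and -0.03, and that in DES became -0.05. In this assignment 7 compounds (AA, DES, ETH, MPy, PBO, TAA and Wy) and their controls all lay on slides 4 to 7, and their log2 fold changes were -0.09 to 0.07. DHEA was then the only compound with all rats outside slides 4 to 7 and all controls on them, with a change of -0.36 in place of 0.29, and it was the only compound called (lower). Over all miRNAs the share of pairs called in this assignment was 6.13% higher and 5.35% lower.
From the deposited values of that table, whose scale and centring could not be settled, the log2 fold changes were -1.57 in DHEA, 0.81 in CFX and between -0.29 and 0.29 in the other 13 compounds. In that table the 31 columns that follow an array of slides 4 to 7 held miR-139-3p at 3.83 to 5.99 and the 32 others at 2.92 to 3.43, again without overlap.
With slide as a fixed block, TAA was at 0.46 (SE 0.27), Wy at 0.41 (SE 0.27), AA at 0.27 (SE 0.24) and DES at 0.31 (SE 0.28), and neither arm was called in any compound; of all pairs, 2.02% were then called higher and 1.36% lower. Of the other compounds set against MC set 1, DHEA turned to -0.52 (SE 0.27), MPy to -0.11 (SE 0.22) and Mcarb to 0.03 (SE 0.18), so the 6 no longer lay on one side of their controls. ETH moved to 0.46 (SE 0.27) and Nif to -0.17 (SE 0.24). These values rest on the groups whose rats lay on more than 1 slide. With slide and column as blocks, TAA was at 0.12, Wy at 0.11 and AA at 0.06, whereas DHEA was at -0.39, MPy at -0.17 and Mcarb at -0.11. DES was then at 0.29, ETH at 0.25, Nif at 0.03 and DMN at -0.21. With scan day as a block TAA was at 0.64, Wy at 0.60, AA at 0.51 and DES at -0.04, and against all vehicle rats pooled at 0.21, 0.17, 0.19 and -0.16 in the same order.

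**Figure D3:**
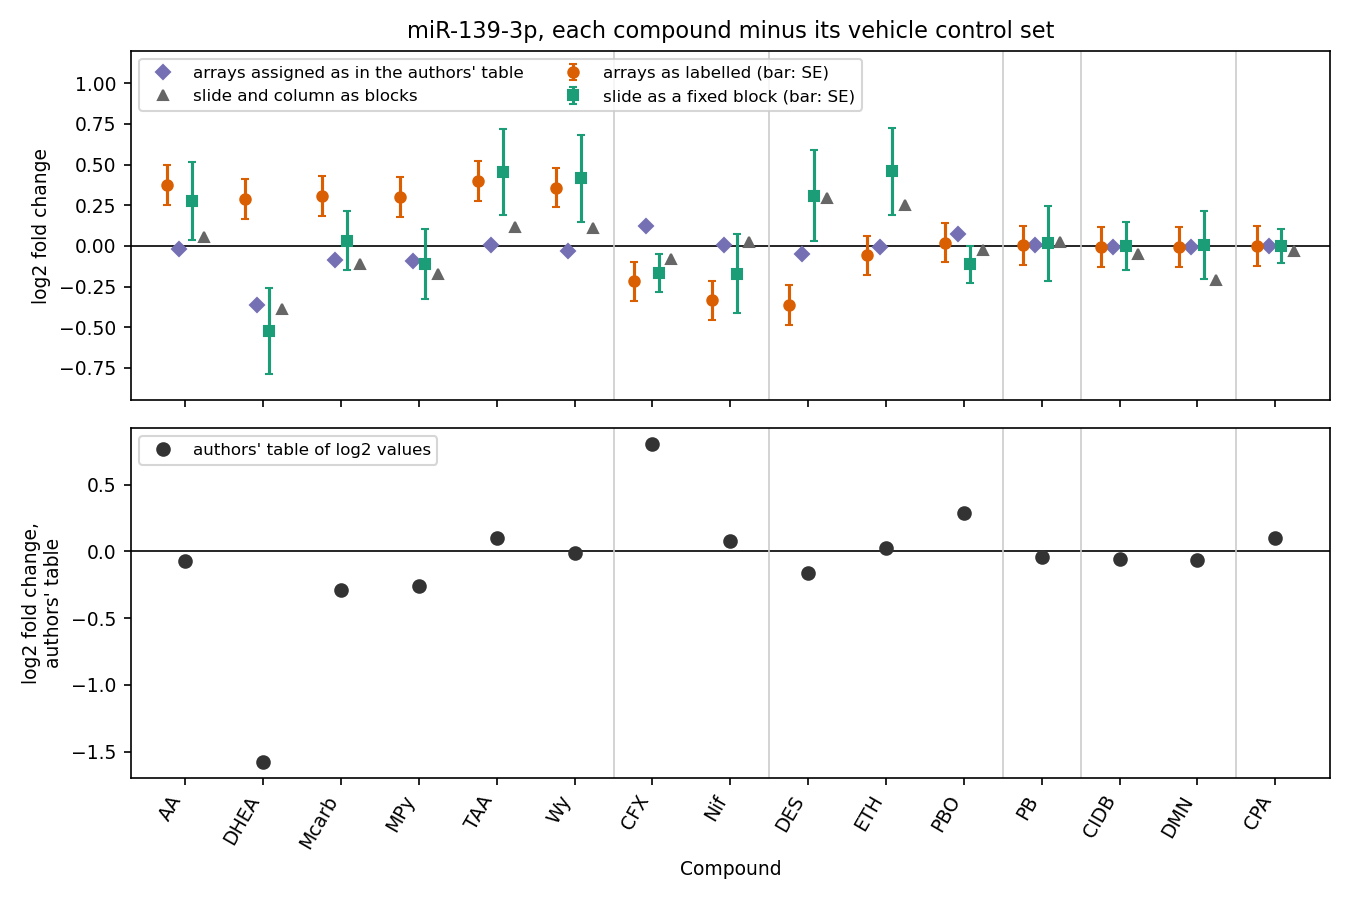
Log2 fold change of miR-139-3p in each of 15 compounds against its vehicle set, with the arrays as labelled (circles, bar = SE), relabelled after the deposited table (diamonds), with slide as a fixed block (squares, bar = SE) and with slide and column as blocks (triangles), and in the lower panel from the deposited log2 values on their own axis. Grey lines separate the control sets; the 6 compounds of the first set lie at 0.29 to 0.40 as labelled, and 5 of them at -0.09 to 0.01 and DHEA at -0.36 as assigned in the table.

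In miR-139-5p, log2 fold changes ran from -0.04 to 0.03 over the 15 compounds (SE 0.01). The only call was in TAA, lower, beside 11.7% of all miRNAs called lower there. It was lost when any 1 rat of TAA or MC set 1 was left out. The TAA rats had 7.40, 7.42 and 7.41 and the rats of MC set 1 had 7.45, 7.44 and 7.45. The groups did not overlap, but no array of either was well above background, so no fold is given. Wy (7.42, 7.41 and 7.43) against the same controls and CPA (7.45, 7.46 and 7.46) against CO set 4 (7.41, 7.43 and 7.45) also did not overlap and were not called, with 14.2% of all miRNAs called lower in Wy and 3.7% called higher in CPA. In 14 compounds no array of either group was well above background, and in CIDB (7.43, 7.48 and 7.46) the measured array lay too near background to give a bound above 1. With the arrays assigned as in the table, miR-139-5p in TAA was at -0.01, and it was called in no compound.

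The arms were then compared within each array, which asks whether they changed unequally. The change of miR-139-5p minus that of miR-139-3p was -0.43 in TAA, -0.39 in AA, -0.39 in Wy, -0.31 in MPy, -0.30 in Mcarb and -0.30 in DHEA, each on the log2 scale with an SE of 0.12. It was 0.38 in DES, 0.33 in Nif and 0.22 in CFX, and between -0.02 and 0.08 in the other 6 compounds. With normexp it was -0.80 in TAA, -0.72 in AA, -0.71 in Wy, -0.60 in MPy, -0.57 in Mcarb, -0.57 in DHEA, 0.67 in DES, 0.60 in Nif and 0.39 in CFX (SE 0.20). These differences were close to those of miR-139-3p with the sign turned, since the values of miR-139-5p stayed near background. They therefore cannot show whether the arms changed unequally. Assigned as in the table, TAA was at -0.01, AA at 0.03, Wy at 0.04, DES at 0.05 and DHEA at 0.38. miR-139-5p was not well above background on 62 of 63 arrays, so a change of this arm may have gone unmeasured.

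Between rats of the same group, which the choice of the pair had not used, the arms did not vary together detectably. Over 63 rats, after removing group means, Pearson's r was 0.04 (permutation p = 0.793, two-sided) and Spearman's rho 0.08 (permutation p = 0.624). Without the 2 rats farthest from the median it was 0.05. Within the first scan day r was -0.12 (permutation p = 0.580, 30 rats) and within the second 0.27 (permutation p = 0.248, 27 rats). Spearman's rho was 0.05 (permutation p = 0.827) and 0.40 (permutation p = 0.0894) in the same order, and r without the 2 farthest rats -0.13 and 0.43. Benjamini-Hochberg adjustment over the 3 values of r (all rats, first day, second day) gave permutation p-values of 0.793, 0.793 and 0.745. As miR-139-5p was not well above background on 62 of 63 arrays, a relation between the arms could hardly have been seen.

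For background, 26 hairpins had both arms among the tested miRNAs. Their correlation of arms between rats of a group ran from -0.33 to 0.76 with a median of 0.07, and miR-139 was 16th of 26 from the top. The highest was miR-199a (r = 0.76), a miRNA of stellate and other mesenchymal cells, whose arms were each called in 1 compound and in the same direction. The lowest was miR-532 (r = -0.33), with its arms well above background on 4 and 0 arrays. In the 7 hairpins with both arms well above background on at least 32 arrays the median was 0.36, from -0.23 to 0.76. The rats share slides, so these correlations hold the slides' part too.

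**Figure D4:**
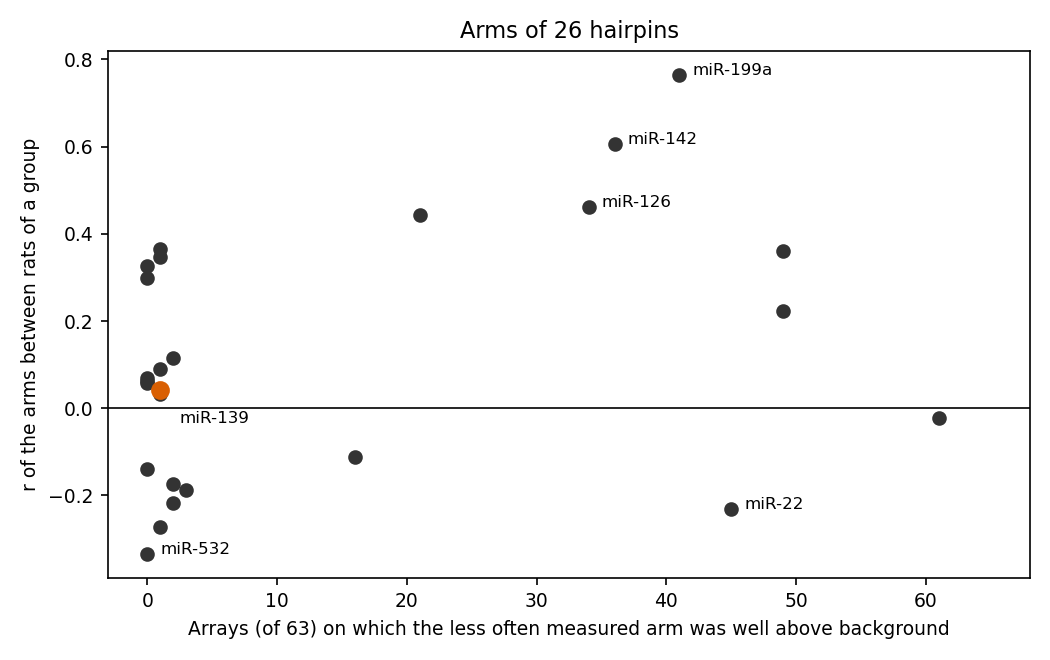
Pearson's r between the arms of 26 hairpins over the deviations of 63 rats from their group means, against the number of arrays on which the less often measured arm was well above background. miR-139 (orange) lies at r = 0.04 with 1 array, among other hairpins that have one arm near background; miR-199a is the highest at 0.76.

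Over the 63 arrays the miRNAs most like miR-139-3p were miR-324-3p (r = 0.46), miR-126* (r = 0.45), which comes from the endothelial miR-126 hairpin, and miR-30b-5p (r = 0.39), among the 103 candidates detected on at least 32 arrays. miR-139-5p, at r = -0.37, would have stood at place 95. The same 3 led with the deposited log2 values. miR-324-3p had the second highest share of variation with slide among all miRNAs (adjusted R2 0.80), and the part of the slides in its likeness to miR-139-3p was not tested. When group means were removed, miR-212 (r = 0.47), miR-125b-5p (r = 0.24) and miR-144 (r = 0.20) led, and none of the first 3 stayed among them.
For miR-139-5p, the miRNAs most like it were miR-652 (r = 0.42), miR-101a (r = 0.42) and miR-126 (r = 0.37), with miR-139-3p at the last place of 104. None of these 3 was among the first 3 when group means were removed either. These values are descriptions over arrays that share slides, and on 62 of the 63 arrays miR-139-5p was not well above background.

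Markers of the cell types of the liver bear on what the samples held. miR-122, the main miRNA of hepatocytes, and miR-192 and miR-194 were well above background on all 63 arrays. Of the stellate and smooth muscle markers, miR-143 and miR-199a-3p were well above background on all 63 arrays, miR-199a-5p on 41 and miR-214 on 9. miR-145 was detected on 0 arrays. Between slides 4 to 7 and the others, the 16 markers differed by -0.12 (miR-126, endothelial) to 0.28 (miR-142-3p, leukocyte) on the log2 scale, beside 0.34 for miR-139-3p. The other leukocyte markers differed by 0.02 (miR-142-5p), 0.01 (miR-223) and 0.00 (miR-150). The part of leukocyte content in miR-139-3p was not tested. In whole liver, fewer cells of a type and less of a miRNA per cell cannot be told apart.
Slides 4 to 7 also had more miRNAs detected per array, with a median of 114 (96 to 136) against 96 (81 to 151), and the part of this in miR-139-3p was not tested.

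miRNAs which, like miR-139, are known as low in liver tumours were looked at beside it, from a list drawn from general knowledge with earlier results of these data known. Of its 14 members 13 were tested, miR-145 being detected nowhere. In 195 pairs of member and compound, 5 (2.56%) were called higher and 25 (12.8%) lower, beside 7.57% and 6.71% over all miRNAs. With slide as a fixed block 5 (2.56%) were called higher and 11 (5.64%) lower, beside 2.02% and 1.36% over all miRNAs. With the table's assignment the counts were 5 and 25, beside 6.13% and 5.35% over all miRNAs.
With the arrays as labelled, miR-125b-5p, which targets regulators of growth and death of cells, was lower in 6 compounds (AA, DES, DHEA, MPy, PBO and Wy). It was lowest in DHEA by limma with a log2 fold change of -0.52 (adjusted p = 1.06e-06). With slide as a fixed block it was lower in 2 and with the table's assignment in 4. In that assignment DES held the arrays filed as DHEA (mean 8.39), against those filed as MC set 2 (8.81), and was lowered most. DHEA then held the arrays filed as DES (8.45), against those filed as MC set 5 (8.81). miR-26a, which represses cell cycle genes, was lower in CIDB, DES, DMN and ETH as labelled, most in CIDB at -0.35 (limma adjusted p = 0.000368). The number of compounds with a lower call was 2 with the slide block and 6 with the table's assignment. In that assignment ETH (mean 9.84) was set against the arrays filed as MC set 2 (10.24). It was then lowered more than CIDB (9.64 against 9.98). miR-195, of the miR-15 seed family, was lower in DMN, MPy, PBO and TAA as labelled, most in MPy at -0.36 (limma adjusted p = 0.00894). It was called lower in 1 compound with the slide block and in 2 with the table's assignment. miR-29c, which represses collagen genes, was the one with 4 calls the other way. As labelled these were in CIDB, CPA, DES and PBO, most in PBO at 0.34 (limma adjusted p = 0.000445). It had 2 such calls with the slide block, and 4 with 1 call lower with the table's assignment. In that assignment PBO (mean 9.67) was set against the arrays filed as MC set 2 (9.40). It was then about level with CPA, which stayed at 0.27. Several of these compounds share control rats, so the calls of one miRNA are not separate pieces of evidence. These 4 miRNAs were named for their number of calls and are shown at their most extreme compound. Their p-values are therefore not free of that choice. As labelled, 16% of all miRNAs were called lower in DES, 14.2% in Wy and 11.7% in TAA. Beside these 4 miRNAs, miR-139-3p was called higher in 3 compounds and lower in 1, and miR-139-5p lower in 1.

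Vehicle rats received no compound, and their contrast was not the one on which the pair was chosen. The fold changes known beforehand were measured against these same rats, so the p-values of this contrast are not free of that choice. The 6 corn oil rats had miR-139-3p between 7.44 and 7.50 with a median of 7.47, well above background in 0. Differences from them are therefore not exact in size. The 12 methylcellulose rats had 7.44 to 7.99 with a median of 7.51, well above background in 6. Corn oil was lower by 0.17 on the log2 scale (SE 0.07), which did not pass (limma adjusted p = 0.0713). With the deposited log2 values it was lower by 0.80, which passed (limma adjusted p = 0.0159), and with percentile scaling by 1.15, which did not (limma adjusted p = 0.0523). With the values used throughout, 34% of all miRNAs (55 of 162) passed in this contrast. That count was 24 with slide as a random block and 0 with scan day as a block, slide as a fixed block or the sets of the first scan day alone. The methylcellulose rats on slides 4 to 7 had 7.55 to 7.99 and those on other slides 7.44 to 7.47, and no corn oil rat lay on slides 4 to 7. Among the sets scanned on the first day, corn oil minus methylcellulose was 0.01 (limma adjusted p = 0.983). Without MC set 2 rat 10 the difference was -0.20 (limma adjusted p = 0.0297), and without MC set 5 rat 7 it was -0.20 (limma adjusted p = 0.0263), so the call depended on single rats.
For miR-139-5p the difference was 0.00025 (SE 0.01, limma adjusted p = 0.981).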

How the data were processed

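Liver miRNA of 63 rats was profiled on 1-colour Agilent arrays, 1 per rat. The deposited scanner files hold spot intensities read with Feature Extraction 10.7.3.1, not normalized. The authors' table holds log2 values that the methods and processing notes describe as RMA without background correction. Here background was likewise not corrected: mean intensities without control and flagged spots (2.87% of spots) were quantile normalized, averaged per probe, put on the log2 scale and summarised by median polish. Leaving out flagged spots and averaging before the polish are steps the methods do not state, and the deposited log2 values differ in scale from those made here. miRNAs detected on no array (188 of 350) were left out. No spot was saturated, and per array 81 to 151 miRNAs were detected, so signal over background limits precision. Groups came from the sample labels. limma 3.58.1 (R 4.3.3) was fitted over all 21 groups with Benjamini-Hochberg adjustment, after being tested on simulated data. Correlations used 100000 permutations.

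The members and lists were chosen with earlier results of these data known. Besides both arms, the text names the 3 miRNAs most correlated with each arm among those detected on at least 32 arrays, up to 4 list members called in the most compounds, the hairpins with the highest and lowest correlation of arms, and preset cell type markers. miR-142-3p, miR-193, miR-878 and miR-743a beside the slide shift and miR-760-3p beside the column were named after their values were seen. So were miR-212, miR-144 and the group-centred order. Alternatives covered normalization, filters, controls, scan day, slide, array assignment and left-out rats. Slide with column, leaving out slide 9, the sets of the first scan day, and, in the vehicle contrast, slide as a fixed block, slide with column and percentile scaling were added after seeing the data. Sequences came from RefSeq (GRCr8), folded with RNAfold 2.7.2. mRNA and protein data were not analysed here.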

Additional observations from a re-analysis of the deposited data

How the results depend on the processing

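Counts of called compounds depended on the processing. miR-139-3p, called higher in 3 compounds, was called higher in 6 with either scaling to the 75th percentile, and in 0 with the table's array assignment, the authors' values, only the 2 groups compared, pooled vehicle controls, slide as a fixed block, or slide and column as blocks. Leaving out 1 rat gave 1 to 4, with 1 without MC set 1 rat 5. Called lower in 1, it was called lower in 2 with either percentile scaling and in 0 with only the 2 groups compared, pooled controls, scan day, slide (fixed or random), or slide and column as blocks. Leaving out 1 rat gave 0 to 1, with 0 without MC set 5 rat 8 or rat 9. miR-139-5p, called lower in 1, was called in 0 with scaling to the detected probes' percentile, the table's assignment, no detection filter, only the 2 groups compared, pooled controls, scan day, slide (fixed or random), slide and column, or slide 9 left out. Leaving out 1 rat gave 0 to 1, with 0 without any single rat of TAA or MC set 1. Called higher, miR-139-5p stayed at 0 in every setting. Over all miRNAs, 7.57% of pairs were called higher and 6.71% lower with the main settings. These shares were 6.13% and 5.35% with the table's assignment and 2.02% and 1.36% with slide as a fixed block. For the other settings they are not given, so nothing about miR-139 is read from these counts. The cause of these changes was not tested.

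Among called values of miR-139-3p, AA turned to -0.018 with the table's assignment and -0.073 with the authors' values, Wy to -0.034 and -0.014, and DES to 0.31 with slide as a fixed block and 0.29 with slide and column. miR-139-5p in TAA turned to 0.0061 with slide as a fixed block. With slide as a random block DES was at -0.31 and not called. Sizes grew with percentile scaling of detected probes, to 3.42 in TAA and -2.54 in DES.

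Corn oil minus methylcellulose for miR-139-3p was -0.80 with the authors' values (limma adjusted p = 0.0159), 0.053 with scan day as a block, 0.049 with slide as a fixed block and 0.0069 within the first scan day, and -0.20 to -0.15 with 1 rat left out (limma adjusted p = 0.0263 to 0.122). For miR-139-5p it was -0.25 with scaling to the detected probes' percentile, -0.017 with slide as a fixed block, -0.017 with slide and column, -0.014 within the first scan day and -0.0018 with slide as a random block, and -0.0056 to 0.0057 with 1 rat left out. The correlation of the arms turned to -0.076 with percentile scaling and -0.12 within the first scan day. It was not run within the third. The authors' values could not be used where miR-139-5p is needed, and a stricter filter leaves that arm out.

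PB with MC set 6, and CPA with CO set 4, share replicate numbers. The deviations of same-numbered rats from their group means correlated at r from -0.26 to 0.05 over 162 miRNAs. With 3 rats per group this cannot show whether the shared numbers mark pairs. With a replicate block miR-139-3p was at 0.0026 in PB and -0.00031 in CPA, and no call changed.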
